A study of Mus musculus with 4 samples.

Results

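Accessible DNA in phenelzine-treated CD8+ T cells of BALB/c mice was compared between cells stimulated with phorbol myristate acetate (PMA) plus ionomycin and cells left unstimulated. The comparison rests on 2 of the 4 ATAC-seq libraries of the study, 1 stimulated and 1 unstimulated, both treated with phenelzine. Their deposited broad peak lists were merged wherever peaks overlapped by at least 1 bp on chromosomes 1 to 19 and X, which gave 11659 regions. A merge of all 4 lists of the study gave 15237. Stimulation was for 2 h, and the labels give PMA at 1 mg/mL and ionomycin at 10 mM. The series title calls the cells tumour-infiltrating. The sources used here do not give the genotype, age, tumour, sort, or the dose and time of phenelzine. The other 2 libraries, stimulated and unstimulated cells without phenelzine, served only to look up the same regions. Each condition had 1 library, so no difference below was tested against replicate error.

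ATAC-seq uses the Tn5 transposase, which inserts adapters into DNA that is not wrapped in nucleosomes, and peaks mark places where insertions pile up. PMA stands in for diacylglycerol and activates protein kinase C and RasGRP proteins, which feed the MAP kinase cascade, AP-1 and NF-kB. Ionomycin carries calcium into the cell, and calcium activates calcineurin, the phosphatase that lets NFAT factors enter the nucleus. Together they bypass the T cell receptor. Phenelzine blocks monoamine oxidases and, as a related flavin enzyme, LSD1, the histone demethylase encoded by Kdm1a.

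Short stretches of sequence were read for genes of the comparison, and some of them are printed here. Each stretch is the part of a promoter window, upstream of the transcription start, that a peak of 1 list alone covered (RefSeq, GRCm38.p6, the patch release of mm10). Capitals mark matches to the ETS, AP-1, cyclic AMP response element (CRE), NRF1 and CArG box motifs described further on. Each printed stretch holds such a match, whereas most stretches read under peaks of 1 list alone held none. The AP-1 letters were also in a stretch of the unstimulated list alone, at the early response gene Csrnp1, which is not printed. All stretches are written 5′ to 3′ on the strand of the gene. The first 5 come from peaks of the stimulated list alone: Zfp36 and Zfp36l1, whose products destabilise AU-rich mRNAs, Prkca, which encodes the PMA target protein kinase C alpha, Nfkbie, which encodes the NF-kB inhibitor IkB epsilon, and an internal start of Rcan1, which encodes a calcineurin regulator. The last 3 come from peaks of the unstimulated list alone: Dusp1, which encodes a MAP kinase phosphatase, Mta2, which encodes a subunit of the NuRD complex to which LSD1 can bind, and Cdk9, which encodes the kinase that releases paused RNA polymerase II. They lie at chr7:28379249-28379346 (Zfp36, minus strand), chr12:80113101-80113263 (Zfp36l1, minus), chr11:108343917-108344003 (Prkca, minus), chr17:45555578-45555679 (Nfkbie, plus), chr16:92400083-92400268 (Rcan1, minus), chr17:26508473-26508722 (Dusp1, minus), chr19:8941811-8941919 (Mta2, plus) and chr2:32712785-32712834 (Cdk9, minus).
Zfp36: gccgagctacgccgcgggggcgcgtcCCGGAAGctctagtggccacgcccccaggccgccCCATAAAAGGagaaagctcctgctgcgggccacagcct
Zfp36l1: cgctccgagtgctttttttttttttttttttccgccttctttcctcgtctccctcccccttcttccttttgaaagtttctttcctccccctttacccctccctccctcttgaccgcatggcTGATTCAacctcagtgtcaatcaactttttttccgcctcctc
Prkca: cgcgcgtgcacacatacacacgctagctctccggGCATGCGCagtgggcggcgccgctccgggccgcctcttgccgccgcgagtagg
Nfkbie: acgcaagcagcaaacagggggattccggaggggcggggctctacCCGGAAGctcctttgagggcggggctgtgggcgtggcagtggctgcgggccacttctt
Rcan1: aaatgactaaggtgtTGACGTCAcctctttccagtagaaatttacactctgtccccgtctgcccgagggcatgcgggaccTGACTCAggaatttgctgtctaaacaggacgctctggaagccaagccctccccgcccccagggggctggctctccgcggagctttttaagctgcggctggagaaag
Dusp1: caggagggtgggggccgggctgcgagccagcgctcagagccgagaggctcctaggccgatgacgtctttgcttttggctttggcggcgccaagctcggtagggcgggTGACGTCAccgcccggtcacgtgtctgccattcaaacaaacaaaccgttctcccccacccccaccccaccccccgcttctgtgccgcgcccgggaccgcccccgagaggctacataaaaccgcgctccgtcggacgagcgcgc
Mta2: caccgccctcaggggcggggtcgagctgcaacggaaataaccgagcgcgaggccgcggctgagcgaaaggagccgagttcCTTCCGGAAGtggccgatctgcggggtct
Cdk9: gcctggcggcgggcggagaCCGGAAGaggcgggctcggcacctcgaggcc

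Of the 11659 regions, the stimulated list alone held 3748 (32.1%), the unstimulated list alone 2356 (20.2%) and both lists 5555 (47.6%). Shared regions lay mostly at genes: 70.7% of them (95% exact interval 69.5 to 71.9) came within 1 kb of an end of a protein-coding gene. Of the regions in the stimulated list alone 31.7% (30.2 to 33.2) did so, and of those in the unstimulated list alone 34.7% (32.8 to 36.6). Gene ends were used because the gene table gave no strand. Measured from RefSeq starts, 28.7% of regions in the stimulated list alone, 30.4% of those in the unstimulated list alone and 64.6% of shared regions came within 1 kb. The centres of these lay a median of 35, 32 and 58 bp upstream of the start, and 71.9%, 71.2% and 81% of them were upstream. The intervals cover counting error only, not variation between animals or libraries.

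**Figure D1:**
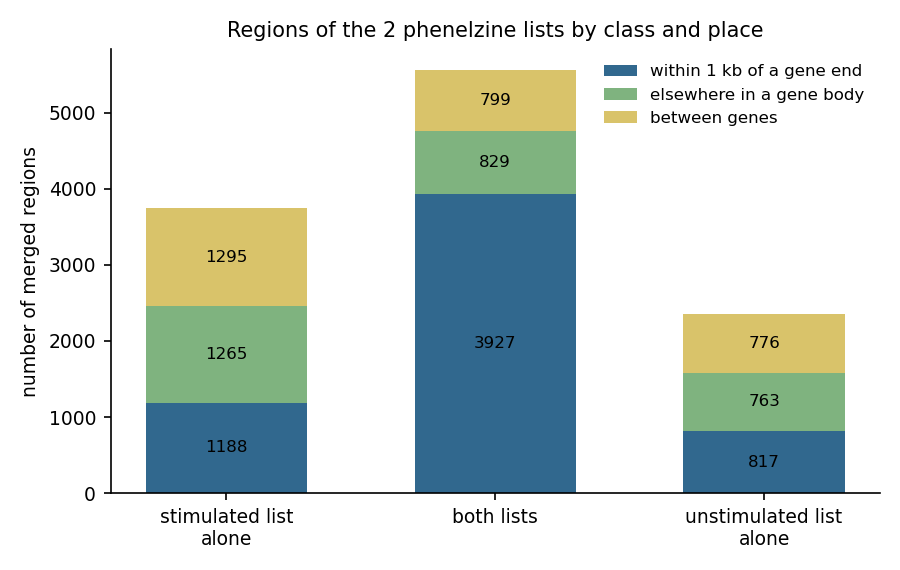
Number of merged regions (y axis) in the stimulated list alone, in both lists and in the unstimulated list alone (x axis), split by place. Gene-end regions make up 3927 of the shared regions, 1188 of those in the stimulated list alone and 817 of those in the unstimulated list alone.

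Regions of 1 list alone were narrow and weak. Their median width was 104 bp in the stimulated list and 99 bp in the unstimulated list, against 213 bp for shared regions. The deposited fold enrichment, the pileup of a peak over its local background, had a median of 4.35 in the stimulated list alone and 5.23 for shared regions in that list. The deposited −log10 q had medians of 1.98 and 3.45. In the unstimulated list the medians were 4.34 and 5.12 for fold, and 1.90 and 3.20 for −log10 q. A −log10 q of at least 3 was reached by 18.4% of regions in the stimulated list alone and by 16.0% of those in the unstimulated list alone. Fold and −log10 q are the authors' values and were used only within a list.

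Sharing was lower the weaker the peak. When the regions of each list were ranked by −log10 q and divided into 5 equal groups, the unstimulated list held 92.8% of the strongest group of the stimulated list, and then 75.7%, 59.3%, 43.9% and 26.9%. The stimulated list held 94.6%, 85.0%, 73.3%, 58.0% and 40.1% of the groups of the unstimulated list. Regions missing from a list were thus mostly those that were weak in the other, and absence of a peak does not show that the DNA was closed.

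**Figure D2:**
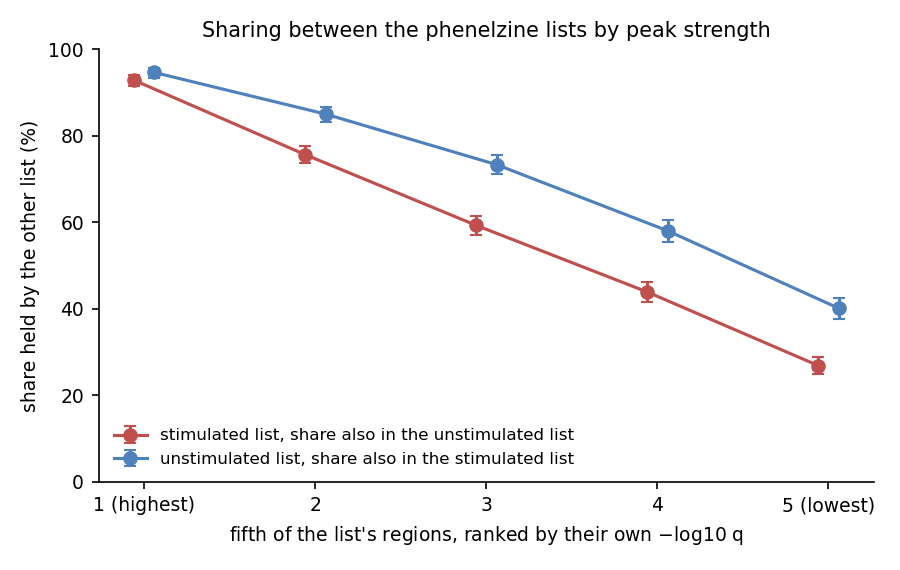
Share of regions also held by the other phenelzine list (y axis, in percent, with exact 95% intervals for counting error) for 5 equal groups of each list ranked by −log10 q (x axis, strongest at the left). Sharing falls from 92.8% to 26.9% in the stimulated list and from 94.6% to 40.1% in the unstimulated list.

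The libraries without phenelzine, which the merge did not use, held the 2 kinds of unshared region about as often. The stimulated untreated list held 40.02% (38.4 to 41.6) of regions in the stimulated phenelzine list alone and 40.6% (38.6 to 42.6) of those in the unstimulated phenelzine list alone. The unstimulated untreated list held 21.2% (19.9 to 22.5) and 21.1% (19.4 to 22.8). Neither untreated list held 53.9% and 53.8%. At gene ends the stimulated untreated list held 58.6% (55.7 to 61.4) against 54.2% (50.7 to 57.7), and elsewhere 31.4% (29.6 to 33.2) against 33.4% (31.0 to 35.8). All 4 of these pairs of intervals overlap, but they cover counting error only and their overlap is not a test of a difference. Whether stimulated regions preferred the other stimulated library was not tested. Of the regions in both phenelzine lists 90.0% were in the stimulated untreated list and 76.4% in the unstimulated untreated list.

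**Figure D3:**
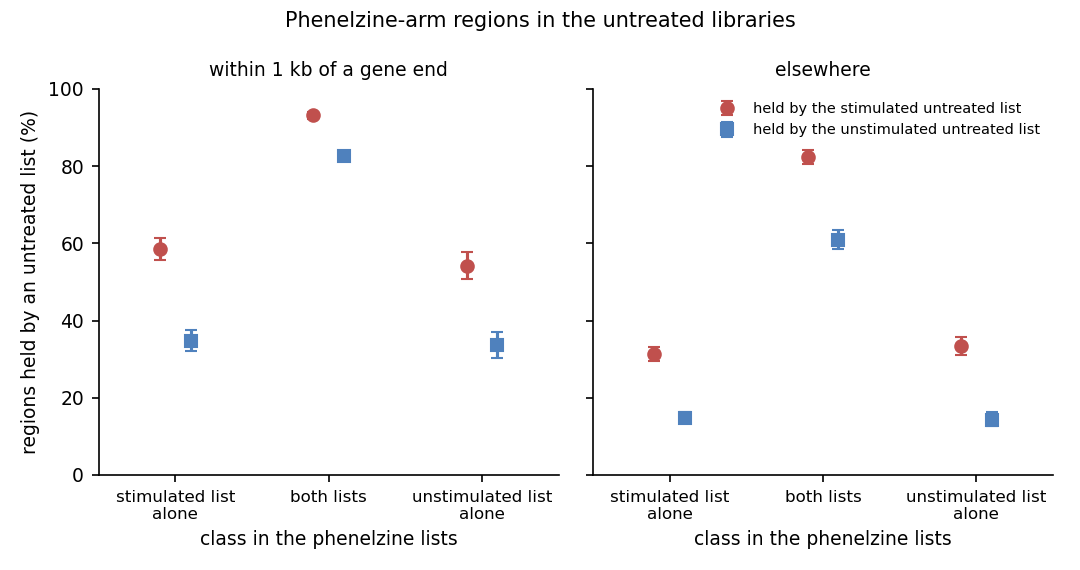
Share of phenelzine-arm regions held by the stimulated (circles) and unstimulated (squares) untreated lists (y axis, in percent, with exact 95% intervals for counting error) by class (x axis), at gene ends on the left and elsewhere on the right. The unshared classes lie near each other in each panel, 58.6% and 54.2% for circles at gene ends and 31.4% and 33.4% elsewhere.

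The deposited lists held 9331 and 7938 peaks, with 9322 and 7929 on the chromosomes used. On these chromosomes the stimulated untreated list held 10405 peaks and the unstimulated untreated list 6519. The former also held the larger share of every class of regions. Presence in it and absence from the latter is to be read against this throughout. Read totals are not in the lists. The background pileup implied by the fold and p columns was 0.489 in the stimulated and 0.471 in the unstimulated phenelzine list, beside 0.493 in stimulated untreated and 0.392 in unstimulated untreated cells. The part of depth in the counts of regions was not tested. The label CD8 was checked against 9 marker genes of these cells. Only Cd3d had a gene-end region, and no region fell in the locus of Cd8a or Cd8b1 in any list, so the peak lists could not show the labelled identity. Of the other cells, myeloid markers had gene-end regions at 1 of 12 genes (S100a8, in both lists) and CD4 and regulatory T cell markers at 1 of 6 (Zbtb7b, in both lists). B cell, NK cell, epithelial and stromal markers had none among 8, 6, 8 and 8 genes. A locus was the gene body with 20 kb on either side. Of the myeloid genes 6 had a region in the locus, with 10 regions in the stimulated and 11 in the unstimulated list, and their part in the results was not tested.

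At the level of genes, 6727 of 21627 protein-coding genes had a gene-end region in either phenelzine list. For 1189 of them (17.7%) it was in the stimulated list alone, for 798 (11.9%) in the unstimulated list alone, and 4740 (70.5%) had one in both. Over loci, 11365 genes had a region, of which 3468 (30.5%) had more regions in the stimulated list and 2079 (18.3%) fewer. The longer list thus gave more genes with more regions across the genome, and gene lists are read against these shares below. A difference of 2 or more was less common, with 560 loci higher (4.93%) and 209 lower (1.84%) in the stimulated list. Which unshared class held more genes of a list often turned with the processing. With −log10 q of at least 3 it turned at gene ends in 7 of 17 gene lists and over loci in 3, and with lists of equal size in 2 and 3.

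Early response genes, which T cells switch on within minutes of activation, had the highest share of gene ends in the stimulated list alone among the 17 gene lists, 42.9% against 17.7% over all genes. Of 24 genes, 14 had a gene-end region in either list. For 6 it was in the stimulated list alone and for 0 in the unstimulated list alone, while 8 had one in both. The 6 were Nr4a2 and Nr4a3, which encode orphan nuclear receptors, Klf4, which encodes a zinc-finger factor that restrains proliferation, Ier2, and the mRNA decay genes Zfp36 and Zfp36l1. Their −log10 q in the stimulated phenelzine list was 2.68 for Nr4a2, 2.58 for Nr4a3, 2.03 for Klf4, 1.56 for Ier2, 2.82 for Zfp36 and 1.55 for Zfp36l1, so none reached 3. The fold enrichments ran from 3.99 at Zfp36l1 to 4.79 at Nr4a2.

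All 6 early response genes also had this gene-end region in the stimulated untreated list, and only that of Ier2 was in the unstimulated untreated list. Over all 1189 genes of this class the stimulated untreated list held a gene-end region of 60.6%, the unstimulated untreated list of 37.8%, and the former but not the latter of 30.4%. For the 798 genes of the unstimulated phenelzine list alone the last share was 29.1%. At Zfp36l1 the −log10 q was 1.55 with phenelzine and 4.92 without, both in stimulated cells. At Nr4a3, Zfp36 and Klf4 the stimulated untreated values were 6.51, 1.57 and 1.83. Each list has its own scale, so these values are ranks within a list and no change is read from them. With 6 genes and 1 library per condition this is a description of these libraries. When only peaks with −log10 q of at least 3 were kept, 1 early response gene was in the stimulated list alone, 2 in the unstimulated list alone and 3 in both. With lists of equal size the counts were 4, 1 and 7.

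The early response genes with a gene-end region in both lists included Klf6, another zinc-finger factor gene, with −log10 q 10.5 in the stimulated and 9.69 in the unstimulated list. Egr1, the early growth response gene, had 3.03 and 3.77, and Ier5 had 4.02 and 2.21. Tnfaip3, which encodes the NF-kB inhibitor A20, had 2.00 and 2.79. Egr2 had a region at an internal start, on chromosome 10 from 67537400 to 67537784, in the stimulated phenelzine list alone (−log10 q 2.05), but both untreated lists held it as well (2.49 and 3.08). Csrnp1 had a peak at an internal start in the unstimulated phenelzine list alone (−log10 q 3.04). It covered chromosome 9 from 119983077 to 119983150, and no untreated list held it. Neither peak came within 1 kb of an end of its gene, so neither is in the gene-end counts. Egr3 also went the other way from Egr2, with 0 regions in its locus after stimulation and 2 before, and both untreated lists held these 2 regions. Over loci, 10 early response genes had more regions (47.6%), 5 fewer (23.8%) and 6 the same number, against 30.5% and 18.3% over all genes. With lists of equal size 6 had more and 6 fewer.

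AP-1 and ATF genes, whose products bind DNA as pairs and carry much of the response to PMA, had gene-end regions at 8 of 16, and both lists held one in each of the 8, beside 70.5% over all genes covered. The other 8, among them Fos, Fosl1, Fosl2, Batf and Batf3, had none in either list. With −log10 q of at least 3 only 1 gene was in both lists, 0 in the stimulated list alone and 2 in the unstimulated list alone. Jun had −log10 q 4.97 in the stimulated and 3.33 in the unstimulated list, Fosb 1.95 and 5.69, Jund 2.26 and 4.14, Junb 2.78 and 2.80, and Atf3 2.03 and 2.80. Of the 13 with a region in the locus, 6 had more regions in the stimulated list (46.2%) and 2 fewer (15.4%), against 30.5% and 18.3% over all genes. Fosb had 5 regions against 3, and neither of its unshared regions, at 8818 and −11583 bp from the start (negative values lie upstream), was in an untreated list. Junb had a further gene-end region in the unstimulated list alone (−log10 q 1.56), which both untreated lists held.

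The route from PMA through protein kinase C had 8 of 21 genes with a gene-end region, 2 in the stimulated list alone, 1 in the unstimulated list alone and 5 in both. Prkca, with fold 5.53 and −log10 q 3.86, and Prkcd, which encodes protein kinase C delta, with 4.03 and 1.59, made up the former. Both gene ends were also in the stimulated untreated list (−log10 q 1.93 and 3.75) and in neither unstimulated list. Traf6, which encodes a ubiquitin ligase on the way to NF-kB, was in the unstimulated phenelzine list alone (fold 5.58, −log10 q 3.84), and no untreated list held it. Bcl10 and Malt1, which encode partners in the same signalling complex, were in both lists, Bcl10 with −log10 q 5.59 and 4.53. Prkch had 6 regions in its locus against 4. Prkcq, which encodes the main protein kinase C isoform at the T cell synapse, and the 4 Rasgrp genes had no region in either list.

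MAP kinase genes were well covered, with gene-end regions at 24 of 30. The class of the stimulated list alone held 7, the unstimulated list alone 4, and both lists held 13. Map2k1, which encodes the kinase MEK1, stood out with fold 7.39 and −log10 q 7.53, and both untreated lists held it too (4.91 and 4.66). Others were Spry2 (3.82) and Spred2 (1.98), which encode feedback inhibitors of Ras signalling, Map2k4 (2.56) and Mapk8 (1.25) of the JNK branch, and the phosphatase gene Dusp2 (1.70). Spry2 and Spred2 were held like Prkca: the stimulated untreated list held them and neither unstimulated list did. The stimulated untreated list was the longer untreated list, and 30.4% of all genes in the stimulated phenelzine list alone were held in this way. The unstimulated list alone held Mapk9, another JNK gene (fold 6.40, −log10 q 5.37), Braf (1.48), Map2k3 (1.57) and Dusp1 (1.46). Mapk9, Map2k3 and Dusp1 were in both untreated lists, and Braf in none. Among the 13 in both, Hras, which encodes a Ras GTPase, had −log10 q 9.12 and 4.70.

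Calcium and NFAT genes split close to the shares over all genes, with 17.6% of those covered in the stimulated list alone and 11.8% in the unstimulated list alone. Of 25 genes 17 had a gene-end region, 3 in the stimulated list alone, 2 in the unstimulated list alone and 12 in both. The unshared counts were 2 and 3 when only peaks with −log10 q of at least 3 were kept, and 1 and 3 with lists of equal size. The first 3 were Orai1, the pore of the calcium release-activated channel (fold 5.66, −log10 q 4.24, in both untreated lists), and the calcineurin subunit genes Ppp3cb (1.25) and Ppp3r1 (1.49). A further subunit gene, Ppp3ca, was in the unstimulated list alone (1.99) although both untreated lists held its gene end (5.49 and 6.34). Camk2d, a calcium and calmodulin kinase gene, was also in the unstimulated list alone (3.84), with 0 regions in the locus after stimulation against 2. Nfatc3, an NFAT factor gene, had −log10 q 7.47 in the stimulated and 4.46 in the unstimulated list, and Stim2, a calcium sensor of the endoplasmic reticulum, 3.54 and 7.2.

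Over loci, 10 of the 25 calcium and NFAT genes had more regions in the stimulated list, 4 fewer and 10 the same number. These were 41.7% more and 16.7% fewer, against 30.5% and 18.3% over all genes. Rcan1 had 3 against 1. Its shared region lay at the gene end on chromosome 16 from 92466249 to 92466406. An added region from 92400083 to 92400268 (fold 4.23, −log10 q 1.79) lay at −97 bp from an internal RefSeq start, and its sequence is given above with a CRE and an AP-1 match. Neither untreated list held it. The other added region of Rcan1, 22398 bp downstream of a start, had −log10 q 2.28 and was in the stimulated untreated list (2.02). Nfatc2 likewise had 3 against 1, with added regions in its body of −log10 q 2.11 and 1.03, and only the former was in the stimulated untreated list. In lists of equal size 6 of these 25 genes had more regions and 6 fewer, in place of 10 and 4.

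NF-kB genes had gene-end regions at 13 of 26, with 2 in the stimulated list alone, 3 in the unstimulated list alone and 8 in both. The unshared counts were 3 and 2 with −log10 q of at least 3, and 2 and 1 with a gene-end window of 500 bp. Both gene ends of Nfkbie were in the stimulated list alone, the promoter region from 45555578 to 45555679 on chromosome 17 with −log10 q 3.85 and the far end from 45563840 to 45563976 with 1.99. The promoter region was in both untreated lists (3.62 and 3.04), and the far end was in the stimulated untreated list alone (4.25). With 2 further regions towards Slc35b2 and Hsp90ab1 it formed a run of 4 regions of the stimulated list alone within 19055 bp, interrupted by 1 region of the unstimulated list alone. Traf3, which encodes a brake on the alternative NF-kB pathway, also had 2 gene-end regions in the stimulated list alone (1.43 and 2.11).

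The subunit genes Rel (1.32) and Rela (2.06) and the inhibitor gene Nfkbid (2.77) had gene-end regions in the unstimulated phenelzine list alone. The region of Rela lay 11330 bp from its listed start, at the far end of the gene. The subunit gene Nfkb2 went the other way, with a peak at an internal start in the stimulated phenelzine list alone (−log10 q 3.91). Both untreated lists held it, with 6.93 in the stimulated and 1.17 in the unstimulated list. Bcl2l1, of the same gene list, had a peak at an internal start in the unstimulated phenelzine list alone. Of the untreated lists, the stimulated one alone held it. Both peaks lay too far from the gene ends to enter the gene-end counts. Relb, Nfkbia and Cyld were in both lists, and Cyld, which encodes a deubiquitinase that limits NF-kB, had −log10 q 4.02 and 6.57. Nfkbia had 5.57 and 4.27 at a gene end, but the peaks over its promoter window had 1.75 in the stimulated and 2.97 in the unstimulated list. Over loci 10 genes had more regions, 3 fewer and 9 the same number. These were 45.5% more and 13.6% fewer, against 30.5% and 18.3% over all genes. With lists of equal size 7 had more and 4 fewer, and within gene bodies alone 3 had more and 1 fewer.

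**Figure D4:**
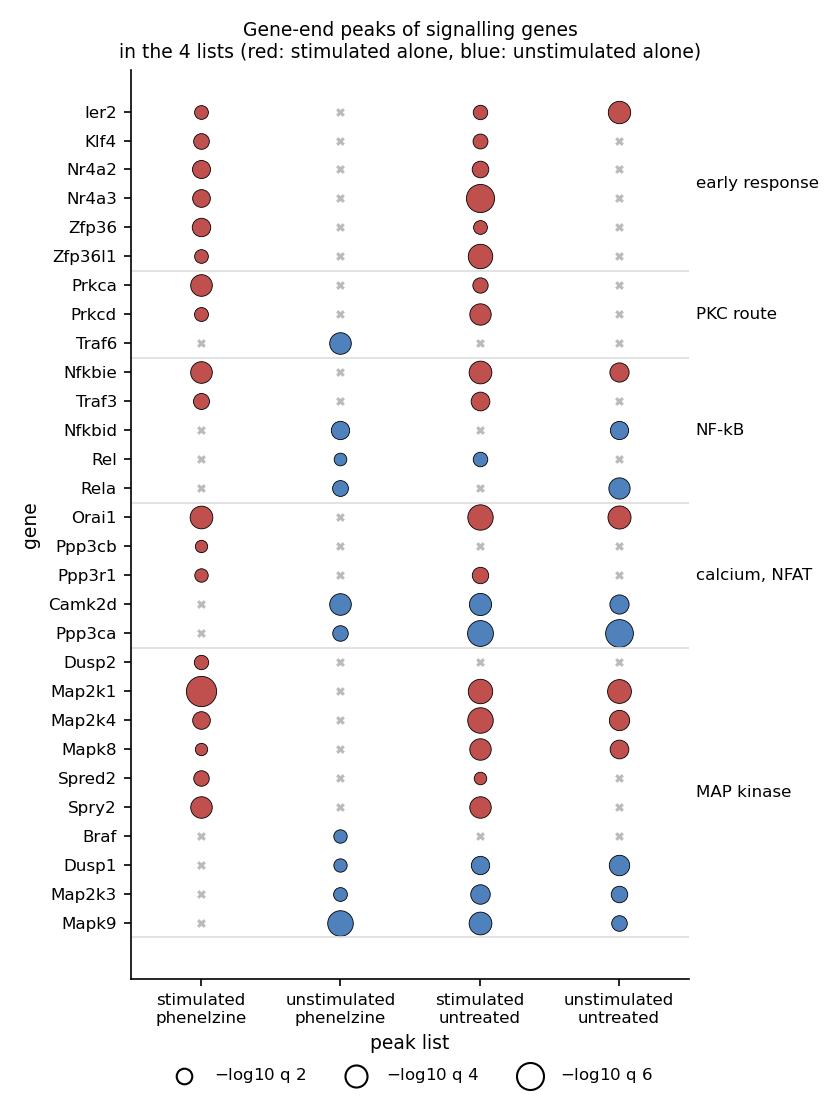
Gene-end peaks of named signalling and early response genes whose gene-end regions were held by 1 phenelzine list alone (rows), in the 4 peak lists (columns). Circle area is proportional to −log10 q within each list, crosses mark lists with no peak, and red and blue mark genes of the stimulated and the unstimulated phenelzine list alone. All 6 early response genes and both protein kinase C genes have a circle under stimulated untreated, and only Ier2 of these 8 has one under unstimulated untreated.

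Genes that make a T cell an effector were sparsely covered. Cytokine and chemokine genes had a gene-end region at 1 of 22, Cxcl10, in both lists (−log10 q 2.02 and 2.02). Granule and killer genes had 3 of 19, with Lamp1 (3.93) and Lamp2 (2.06), which encode lysosome membrane proteins exposed on degranulation, in the unstimulated list alone. Nkg7 had a region at 1 end in the stimulated list (1.26) and at the other in the unstimulated list (1.25). Srgn, the granule proteoglycan gene, had 1 region against 3, and Rab27a, a docking factor of lytic granules, 2 against 0. Both regions of Rab27a lay outside the gene and were in both untreated lists.

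Activation receptors had gene-end regions at 2 of 16, the amino acid transporter subunit gene Slc3a2 (6.03 and 8.64) and the transferrin receptor gene Tfrc (7.6 and 4.95), both in both lists. Only 6 of the 16 had a region in the locus, with 4 having more regions and 1 fewer, beside 30.5% and 18.3% over all genes. Cd44 had 3 regions in its body against 1, and neither added region was in an untreated list. Inhibitory receptor genes had 5 of 18, with Nr4a2 in the stimulated list alone, Entpd1, which encodes the ectonucleotidase CD39, in the unstimulated list alone (2.28), and Cblb, Cish and Ptpn2 in both. Cish, a cytokine signalling inhibitor gene, had −log10 q 7.22 and 5.73. The second region of Pdcd1, at −3572 bp from its start, was in the stimulated phenelzine list and no other (1.82).

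Naive and quiescence genes had more regions after stimulation in 9 of 20 loci and fewer in 3, but this did not hold with lists of equal size, where 3 had more and 5 fewer. The gene-end region of Cdkn1b, which encodes the cell cycle inhibitor p27 (1.29), was in the stimulated list alone and also in the unstimulated untreated list. Tob1, an antiproliferative gene, was in the unstimulated list alone (1.60). Klf2 (4.41 and 1.5), Foxo1 (3.49 and 3.97) and Btg1 (2.86 and 3.83) were in both. Btg1 had 3 regions in its locus against 1, the added ones with −log10 q 1.48 and 1.44 and in no untreated list.

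Among effector transcription factor genes 11 of 28 had a gene-end region, with 3 in the stimulated list alone, 2 in the unstimulated list alone and 6 in both. Prdm1, which encodes Blimp-1 (1.46), and Runx1 (1.78) were in the stimulated list alone and, of the untreated lists, in the stimulated one alone, with −log10 q 6.82 and 4.69 there. Tcf12 (2.56) was in no untreated list. Elf1 (2.72) and Ets1 (3.12) were in the unstimulated list alone at their gene ends. The locus of Ets1, which encodes the founding ETS factor, nevertheless held 7 regions against 4. Stat4 had 3 against 1 and Zeb2 1 against 3. A family matched by gene name to interferon regulatory factors and STATs, 19 genes, had a region in 15 loci. The stimulated list had more in 8 (53.3%) and fewer in 0, against 30.5% and 18.3% over all genes. Loci with more included those of Irf1 and of the neighbours Stat5a and Stat5b, which are counted separately. The match by name also took in Irf2bp1 and Irf2bp2, which are not interferon regulatory factor genes. Irf2bp2 (4.88) led the gene ends of the stimulated list alone and Irf2bp1 (2.11) those of the unstimulated list alone. At gene ends the family split 2, 1 and 7, near the shares over all genes at 20%, 10% and 70% of those covered.

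T cell receptor genes had gene-end regions at 4 of 25, with Cd3d (1.55) in the unstimulated list alone and Fyn, Grb2 and Sos1 in both. In loci 1 had more and 5 fewer, and with −log10 q of at least 3 the counts were 4 and 2. The neighbours Cd3d, Cd3e and Cd3g shared 1 such region, so the 5 are not 5 separate events. Vav1, which encodes an exchange factor below the receptor, had 0 against 2, at −log10 q 3.65 and 1.62, and no untreated list held either.

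**Figure D5:**
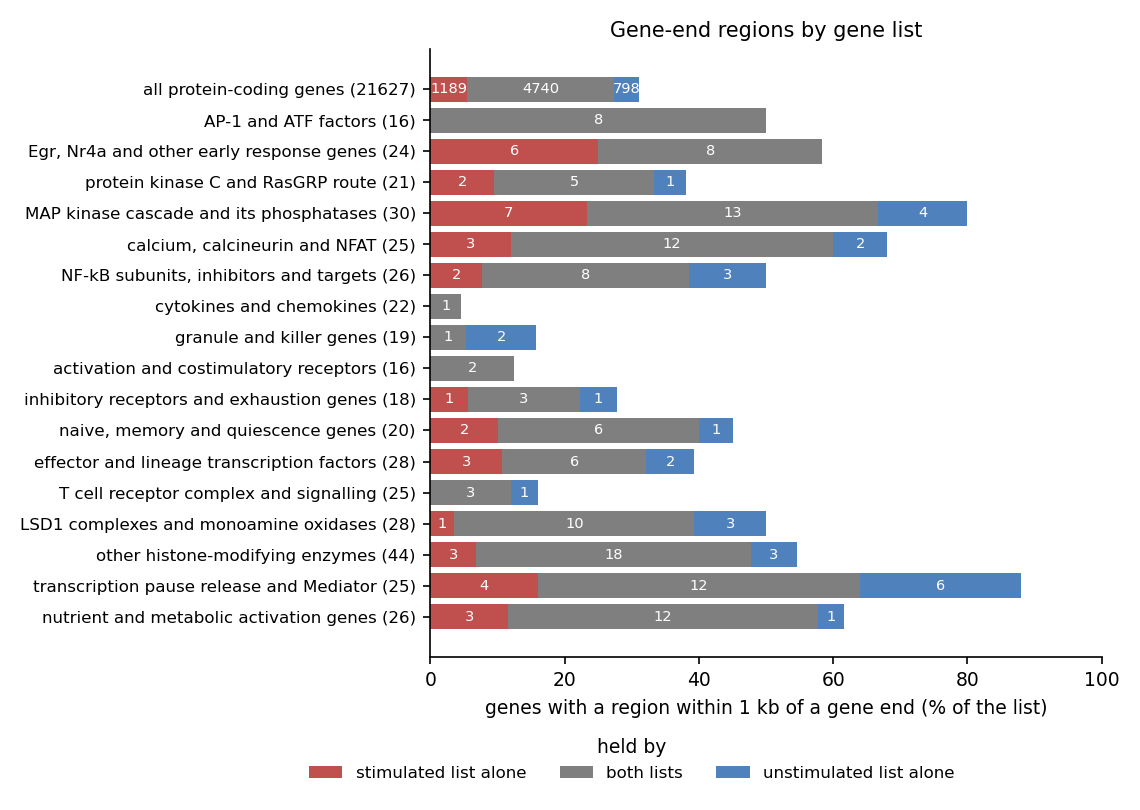
Share of the genes of each list with a region within 1 kb of a gene end (x axis, in percent of the list) in the stimulated list alone, both lists and the unstimulated list alone. Lists are the rows with their size in parentheses and gene counts in the bars. The early response genes show 6 in the stimulated list alone and 0 in the unstimulated list alone, while all protein-coding genes show 1189 and 798.

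Of 28 genes of LSD1 complexes and monoamine oxidases, which include the targets of phenelzine, 14 had a gene-end region. Both lists held it for 10 of them (71.4%), close to the 70.5% over all genes. The stimulated list alone held 1 and the unstimulated list alone 3, or 4 and 3 with −log10 q of at least 3. Kdm1a itself had −log10 q 4.55 in the stimulated and 1.86 in the unstimulated phenelzine list, at chromosome 4 from 136602702 to 136602832, and no untreated list held the region. Rcor1, which encodes the CoREST scaffold of LSD1, had 4.86 and 3.95. Hdac1, which encodes a deacetylase of the same complexes, had one of the strongest gene-end regions of the stimulated list alone (fold 7.72, −log10 q 7.96). Both untreated lists held it (4.72 and 2.69). Hdac2 (2.23), Mbd2 (2.58) and Mta2 (3.67) were in the unstimulated list alone. In loci, 3 of the 28 had more regions in the stimulated list and 8 fewer, and each of these 8 had 1 region fewer. With −log10 q of at least 3 the locus counts were 5 and 5.

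Pause release and Mediator genes had the highest coverage, with gene-end regions at 22 of 25. The stimulated list alone held those of Med1 (2.03), Med12 (2.94) and Med23 (2.55), which encode subunits of Mediator, and Nelfb (2.72), a subunit of the pausing factor NELF. The unstimulated list alone held 6, namely Aff1 (3.34), Aff4 (2.06), Cdk8 (1.55), Cdk9 (2.19), Ell2 (2.36) and Supt5 (1.71). Cdk9, Aff4 and Ell2 belong to the machinery that drives paused polymerase into elongation. Of these 6 gene ends the stimulated untreated list held 4, with Ell2 at 4.91, Cdk9 at 3.36, Supt5 at 2.95 and Cdk8 at 1.74. The unstimulated untreated list held 3, with Ell2 at 3.24, Supt5 at 2.42 and Aff4 at 2.05. With −log10 q of at least 3, 3 genes were in the stimulated list alone in place of 4, and 2 in the unstimulated list alone in place of 6. Nelfcd (9.25 and 12.7) and Ccnt2, which encodes a cyclin partner of CDK9 (7.52 and 6.20), were in both lists.

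Other histone-modifying enzymes split evenly at gene ends, with 3 in each unshared class and 18 in both, of 44. Kmt2b (1.83), Kmt2d (1.76) and Setd2 (1.64), which encode methyltransferases of histone H3, were in the stimulated list alone. Ezh2 (2.2), which encodes the Polycomb methyltransferase, Hdac3 (1.60) and Sirt1 (4.56) were in the unstimulated list alone. Metabolic genes of activation had 16 of 26, with Cpt1a (1.05), Pfkl (1.96) and Rptor (1.64), which act in fatty acid oxidation, glycolysis and mTORC1 signalling, in the stimulated list alone and the glycolytic gene Pkm (1.99) in the unstimulated list alone. The locus of Rptor had 3 regions against 0.

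Promoter sequence was compared between classes over RefSeq windows from 250 bp before to 50 bp after each start. There were 21044 windows of 17273 genes. Those that a peak covered were richer in G and C, with a median of 62.0% in both unshared classes and 62.3% in the shared class, against 56.7% over all windows. The GC box (GGGCGG) was in 70.7% of windows in the stimulated list alone, 67.7% in the unstimulated list alone, 73.3% in the shared class and 46.7% of all windows. The ETS letters CCGGAAG were in 25%, 22.8%, 27.4% and 11.7%. Motifs were searched on both strands, and a match is a description, not a binding site.

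Matches for the factors that PMA and ionomycin activate were few in every class. The AP-1 letters TGANTCA were in 4.55% (3.40 to 5.93) of the 1122 windows of the stimulated list alone, 4.27% (2.94 to 5.98) of the 749 of the unstimulated list alone, 3.74% of the 4093 shared ones and 7.04% of all. The NF-kB letters GGGAN followed by TTTCC were in 0.802%, 0.668%, 0.293% and 0.428%, which is 9, 5, 12 and 90 windows. The NFAT letters TGGAAAA were in 4.37%, 5.07%, 4.01% and 6.02%. The intervals of the unshared classes overlapped for each of these 3. The CRE letters TGACGTCA were in 2.85% (1.96 to 4.00) of windows in the stimulated list alone and 5.07% (3.61 to 6.90) of those in the unstimulated list alone, beside 5.03% of shared and 2.26% of all windows.

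Shared promoters carried 2 motifs more often than either unshared class. The NRF1 letters GCGCATGC were in 11.4% (10.4 to 12.4) of shared windows, 4.46% (3.33 to 5.83) of windows in the stimulated list alone, 4.54% (3.16 to 6.29) of those in the unstimulated list alone and 3.54% of all. CCAAT was in 51.9% (50.4 to 53.5), 38.0% (35.1 to 40.9), 32.8% (29.5 to 36.3) and 38.5%. Median G and C content was 62.0% to 62.3% in these 3 classes. Of the promoters printed above, those of Zfp36, Nfkbie, Mta2 and Cdk9 held ETS letters and that of Zfp36 also a CArG box, the element bound by serum response factor. That of Dusp1, in the unstimulated list alone, held the CRE letters.

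By strength, the unshared gene-end regions of the stimulated list were led by Mprip, which encodes a myosin phosphatase partner (fold 9.04, −log10 q 10.9), Actr1a, a dynactin subunit gene (8.14, 10.1), and the shared promoter of Cep19 and Pigx (8.39, 9.36). Iars2 with Bpnt1 (9.08), the SNARE gene Ykt6 (8.33), the RNA polymerase III subunit gene Polr3a (8.13), the stress response gene Sesn2 (7.58), Fbl with Dyrk1b (7.45), Scap, which encodes the escort of the sterol factor SREBP (7.39), and Bahd1 (7.23) followed in −log10 q, beside Hdac1 and Map2k1. All 12 were also in the stimulated untreated list, and 9 of them in the unstimulated untreated list. Mprip, Actr1a and Ykt6 were in the stimulated untreated list and neither unstimulated one.

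In the unstimulated list alone the strongest gene ends were those of Gtpbp10, a mitochondrial GTPase gene (fold 8.28, −log10 q 8.81), the shared promoter of the condensin gene Ncapd3 and Vps26b (7.56), Cdc37l1 (7.0), the mitochondrial ribosome gene Mrpl58 (6.96) and Gtf2f2, a general transcription factor gene (6.57). Ulbp1, which encodes a ligand of the killer receptor NKG2D, had 6.55, the innate immune kinase gene Tbk1 had 6.23, and the prolyl hydroxylase gene Egln2 had 6.07. Of the 12 strongest, 11 were in the stimulated untreated list, Lypd1 being the exception, and 4 in the unstimulated untreated list, namely Cdc37l1, Gtf2f2, Tbk1 and Scyl2.

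Shared gene-end regions were led by places with very high values, Gm20594 (−log10 q 247 in the stimulated and 306 in the unstimulated list) and Lars2 (59.1 and 37.6). Repeats and poorly mapped places were not filtered out, so whether such regions mark accessible DNA was not tested. Next came the class I gene H2-D1 (16.3 and 17.6), the histone pair H2bc11 and H2ac11 (16.1 and 9.49) and Top2a, which encodes the topoisomerase of dividing cells (16.1 and 10.1). Hjurp, a centromere chaperone gene, had 15.1 and 10.3, and Ppwd1 with Cenpk had 15.5 and 6.96. Hmmr, at 12.8 and 21.2, and Ect2, at 8.17 and 14.6, were among the strongest in the unstimulated list. Atp5b, an ATP synthase subunit gene, had 14.0 and 9.38.

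Away from gene ends, strong unshared regions of the stimulated list included a pair at the start of chromosome 9, with −log10 q 21.3 and 20.5. In the unstimulated list the strongest also lay there, from 3027109 to 3027176, with fold 9.72 and −log10 q 46.4. The region from 80002791 to 80002979 on chromosome 4 had only fold 2.94 at −log10 q 23.9. Runs of 3 or more unshared regions with gaps of at most 10 kb numbered 13. Of these, 10 belonged to the stimulated list, among them 6 regions in Mid1 within 18989 bp and 4 across Mcat, Tspo and Ttll12 within 19540 bp. The span in Mid1 also held 2 other regions. A region of the unstimulated list alone there, from 169973434 to 169973539 on chromosome X, had −log10 q 7.30, above the run's highest of 4.36. Of the 4 across Mcat, Tspo and Ttll12, 1 region was in an untreated list. At Cd9, a tetraspanin gene, 3 regions of the stimulated list within 2427 bp were in no untreated list. In the unstimulated list 6 regions lay in Sfi1, which also held 4 other regions in the same span.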

How the data were processed

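ATAC-seq peak lists of 4 libraries, 1 per condition, were used as deposited. The submitters' processing notes name the build mm10 and the tools Bowtie2 2.2.5, Trimmomatic 0.33, MACS2, Picard and HOMER. Parameters, filters and the meaning of the tag less120 in the peak names are not given there. If that tag is an upper limit on fragment length, the lists describe short fragments only. Peaks were called per library. The deposited score equalled the −log10 q-value multiplied by 10 and truncated in every peak of both phenelzine lists. The deposited fold enrichment was a ratio of pileup to local background. The deposited p-values and q-values were on the −log10 scale.

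Peaks on chromosomes 1 to 19 and X were merged by overlap of at least 1 bp (Python 3.11.15, pandas 2.3.3, numpy 2.4.6), which was tested on simulated data. Gene ends, loci and nearest genes came from the RefSeq table of 21627 protein-coding genes (GRCm38.p6), and starts, strands and sequences from RefSeq promoter windows, which matched 17273 of them. Shares have exact (Clopper-Pearson) 95% intervals from scipy 1.17.1. Conditions had 1 library each, so they were not tested against each other. The commonest pair of fold and −log10 p in a list gave its background pileup. The regions, gene lists, families and motifs were chosen with earlier results of these data known. Named genes were the strongest regions per class by −log10 q and fold, all list members with a gene-end region in 1 list alone or a locus difference of 2 or more, and the leading family members. Genes given with values in both lists, those of the locus counts and those with no gene-end region were chosen after their values were seen. So were Egr2, Csrnp1, Nfkb2, Bcl2l1 and the family members with no value. Some genes that this rule names are not reported here. Peaks on Y, 9 in each phenelzine list, were left out. Alternatives were another peak threshold, equal list sizes, another overlap, gene-end window and locus, and a merge of all 4 lists.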

Additional observations from a re-analysis of the deposited data

How the results depend on the processing

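With −log10 q of at least 3 in the phenelzine lists, 1685 regions were in the stimulated list alone, 1071 in the unstimulated list alone and 2349 in both. The gene-end shares were then 63.9%, 65.8% and 83.0%, and 2421 genes had a gene-end region in both lists. The stimulated untreated list held 79.6% and 79.1% of the 2 unshared classes, and the unstimulated untreated list 58.2% and 58.9%. A peak counts as unshared under this threshold where its partner was weaker than 3, which raises these shares by construction. With lists of equal size by −log10 q 36% of regions in the stimulated list alone and 72.4% of shared regions were at gene ends, and the untreated shares were 45.8%, 44.6%, 24.8% and 23.9% in the same order. The 2686 and 2684 unshared regions were then nearly equal by construction. With a gene-end window of 500 bp the shares were 28.8%, 31.0% and 67.5%. Within gene bodies alone 1755 genes had more regions and 1086 fewer. Without gene-end regions the untreated shares were 31.4%, 33.4%, 14.8% and 14.4%. The cause of these shifts was not tested beyond this. Merging all 4 lists, chosen after seeing the data as were the alternatives of the untreated shares, gave 3701, 2309 and 5584 regions. Over all genes, the stimulated list kept the larger unshared class under each alternative. With lists of equal size the margin was small, 981 against 961 genes at gene ends and 2637 against 2553 over loci. The main counts were 1189 against 798 and 3468 against 2079. For the 17 gene lists, gene counts moved by over 1.5 times in 44 of 85 values with the threshold, 17 of 85 with equal sizes, 24 of 34 within gene bodies, 5 of 34 with a wider locus and 4 of 51 with the narrower window. Which class held more genes turned in 7 lists at gene ends and 3 over loci with the threshold, in 2 and 3 with equal sizes, in 2 within gene bodies, in 1 with the narrower window and in 0 with the wider locus. Early response gene ends went from 6 and 0 to 1 and 2 with the threshold, and naive gene loci from 9 and 3 to 3 and 5 with equal sizes. No paired analysis was possible because the groups have 1 library each. Most regions of 1 list alone were below −log10 q 3. Read totals are not in the lists, so the part of depth was not tested.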

Other observations

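Families that were counted by name showed how the 2 phenelzine lists treated housekeeping genes. Cytosolic ribosomal protein genes had a gene-end region at 71 of 85, with 8 in the stimulated list alone, 3 in the unstimulated list alone and 60 in both. Genes matched by name to oxidative phosphorylation subunits, a match that also takes in Ndufaf assembly factors, had 12, 5 and 54 of 97. They were led by Ndufs5 (6.79) in the stimulated list alone and Atp5j2 (4.19) in the unstimulated list alone. Genes of ubiquitin conjugation and removal had 11, 3 and 37 of 106, and solute carriers 24, 14 and 59 of 375. Splicing and RNA-binding proteins had 12, 14 and 93 of 158, with Srsf9 (6.55) and Dhx36 (4.50) the strongest of the unshared classes. Against all genes, at 17.7% and 11.9% of those with a gene-end region, the ribosomal family had 11.3% and 4.23% and the splicing family 10.1% and 11.8%.

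Of 45 genes of the H2 complex and of antigen presentation, class I and class II together, 23 had a region in the locus. The stimulated list had more regions in 10 of these loci (43.5%) and fewer in 1 (4.35%), against 30.5% and 18.3% over all genes. Several of these genes are neighbours that share regions. Gene-end regions of H2-Q4 (fold 5.12, −log10 q 3.19), H2-T23 and H2-M3 were in the stimulated list alone, none was in the unstimulated list alone, and 9 genes including B2m, Tap1 and H2-K1 had one in both. The stimulated untreated list held the region of H2-Q4 and the unstimulated untreated list did not. Replication-dependent histone genes had more regions in 9 loci and fewer in 28, of 64 genes, or 15.5% and 48.3% of the 58 loci with a region. They lie in tight clusters in which 1 region is counted for many genes, and at gene ends they split 5, 5 and 38. Cyclin and cyclin-dependent kinase genes had 5 gene ends in the stimulated list alone (Cdk2, Cdk7, Ccnb1, Ccnb2 and Cdkn1b), 6 in the unstimulated list alone (Ccnh, Ccnj, Cdk8, Cdk9, Cdk12 and Cdk16) and 19 in both. The unshared classes were 16.7% and 20% of those covered. Families not expected in T cells were nearly empty, with gene-end regions at 1 of 1110 olfactory receptor genes and at none of 53 keratin and 69 protocadherin genes.

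Both ends, or 2 places at 1 end, were held by 1 list alone at 39 genes. In the stimulated list these included Elk4, which encodes a partner of serum response factor, Tspo, the galectin gene Lgals1, the nucleic acid sensor gene Zbp1, Gfpt1, Oat and Hmgn2, and in the unstimulated list Acadl, Usf2, Aars and Egln2.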
